A study of Neurospora crassa with 16 samples.

Results

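The mating genes of Neurospora crassa described here are 7 of the 9730 genes counted by RNA-seq in a strain that lacks lsd1, which encodes lysine-specific demethylase 1, a histone demethylase. They were chosen by locus and not by measured values, although earlier results of these data were known. NCU01958 (matA-1), NCU01959 (matA-2) and NCU01960 (matA-3) make up the mating type locus of mating type A. NCU02500 (ccg-4) and NCU16992 (mfa-1) encode pheromone precursors, and NCU00138 (pre-1) and NCU05758 (pre-2) encode pheromone receptors.

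Neurospora crassa mates only between strains of opposite mating type, called A and a. The mating types carry unrelated sequences, termed idiomorphs, at the same chromosomal position, so a mat a strain has none of the matA genes. Each mating type secretes its own peptide pheromone and carries a receptor that detects the pheromone of the other: CCG-4 is the precursor of the A pheromone and PRE-2 its receptor in mat a cells, while MFA-1 is the precursor of the a pheromone and PRE-1 its receptor in mat A cells. The receptors act through a heterotrimeric G protein and a mitogen-activated protein kinase cascade that also serves vegetative cell fusion. MAT A-1 sets A identity and also acts in vegetative incompatibility between strains of opposite mating type.

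The study measured DNA methylation, histone marks and RNA in 16 samples, of which 2 Δlsd1 RNA-seq libraries have count files used here. Both are labelled mat a with lsd1 replaced by hph, a hygromycin resistance gene, in strain N5555. The cultures were germinated conidia, the asexual spores, grown with shaking in Vogel's medium with 1.5% sucrose for 16 h at 32 °C. The wild-type strain is N3752, labelled mat A on its histone sample in the same series; its 2 RNA libraries belong to another series. It enters here only through the authors' deposited tables of genes lower and higher in Δlsd1. The strains compared thus differ in mating type and in series as well as in lsd1. For a gene carried by both mating types these cannot be told apart, and a mat a strain has none of the matA genes whatever its lsd1. The libraries come from 1 deletion strain, and nothing in the labels says that they came from separate cultures, so the spread between them may be technical.

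The depth was 7017726 reads on genes in replicate 1, against 6797672 in replicate 2. Levels are given as CPM, the reads of a gene scaled to a total of 1000000 reads on genes, and a count of 0 allows up to 3 reads, or 0.427 CPM in replicate 1 and 0.441 CPM in replicate 2. NCU09120, taken as lsd1 although the reference table gives it no symbol, had 41 and 65 reads in Δlsd1, and the authors' deposited table gave it a mean normalised count of 88.7 in Δlsd1 and 675 in wild type. These reads remained although lsd1 is labelled as replaced, and their source was not tested. The level of NCU09120 was 7.70 ± 2.63 CPM (SD, n = 2), above the mean of 4.70 CPM for pre-1 and 1.51 CPM for pre-2. Of 3 markers of asexual spores, con-10 was lower in the authors' deposited tables (log2 fold change -1.75, adjusted p = 8.70e-15), con-6 had a log2 fold change of 1.41 there (adjusted p = 0.162; 0.92 with replicate 2 alone), and eas, a spore hydrophobin gene in neither table, had 9721 and 2241 reads in replicates 1 and 2. In these cultures a lower share of one kind of cell and less RNA per cell cannot be told apart.

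The matA genes and the A pheromone precursor gene were without reads in the mat a Δlsd1 strain. For matA-1 (chromosome I, 1860692 to 1862194, assembly NC12), which encodes the alpha-box transcription factor of mating type A, both libraries held 0 reads. The gene matA-2 (chromosome I, 1859093 to 1860424), needed for events after fertilisation, had 0 reads in both libraries, as did matA-3 (chromosome I, 1857194 to 1858469), which encodes a high mobility group protein. The A pheromone precursor gene ccg-4 (chromosome I, 2531832 to 2533997) also had 0 reads in both, although it lies 670 kb from the mating type locus and is carried by both mating types. Of all counted genes, 10.7% had 0 reads in both libraries, as had these 4 of 7 mating genes. A mat a strain does not carry the matA genes, so of these 4 only ccg-4 could have had reads.

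The genes carried by both mating types were detected at low level, apart from ccg-4. The a pheromone precursor gene mfa-1 (chromosome V, 3396270 to 3397430) had 52 and 73 reads in replicates 1 and 2, or 7.41 and 10.7 CPM, a mean of 9.07 ± 2.35 CPM (SD, n = 2). The receptor gene pre-1 (chromosome III, 2752660 to 2756067) had 36 and 29 reads, or 5.13 and 4.27 CPM, a mean of 4.70 ± 0.611 CPM (SD, n = 2). The receptor gene pre-2 (chromosome VII, 3727404 to 3729156) had 13 and 8 reads, or 1.85 and 1.18 CPM, a mean of 1.51 ± 0.478 CPM (SD, n = 2). All lay under the median of 14.2 CPM over all counted genes: 42.9% of genes had a lower CPM than mfa-1, 33.8% than pre-1 and 23.8% than pre-2. None of the 7 spans overlaps another annotated gene, so no overlapping gene could share their reads.

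**Figure D1:**
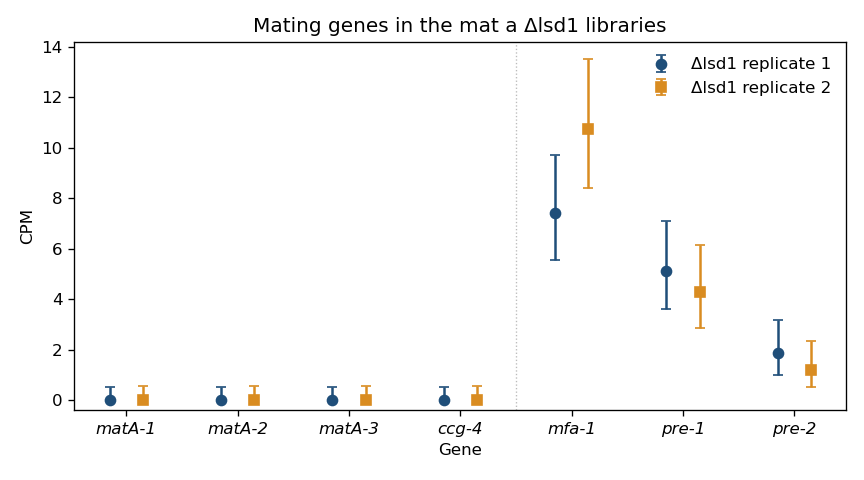
Level of the 7 mating genes in CPM in replicate 1 (circles) and replicate 2 (squares) of the mat a Δlsd1 strain; bars are exact 95% Poisson intervals and cover counting error only. The 4 genes left of the dotted line had 0 reads in both libraries, and mfa-1 stood highest at 7.41 and 10.7 CPM.

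Per length, the order was mfa-1, then pre-1 and pre-2. Per kilobase of annotated span, mfa-1 stood at 6.38 and 9.25 CPM in replicates 1 and 2, pre-1 at 1.51 and 1.25, and pre-2 at 1.06 and 0.671. The level of mfa-1 per kilobase was thus 4.24 and 7.39 times that of pre-1, and its exact 95% Poisson interval lay above those of both receptor genes in each library (4.77 to 8.37 in replicate 1, where the upper bounds of pre-1 and pre-2 were 2.08 and 1.81). The receptor genes did not separate: pre-1 per kilobase was 1.42 and 1.86 times pre-2, and their intervals overlapped in both libraries. The gene for the receptor that serves mat A cells, pre-1, had more reads than pre-2 in each library of this mat a strain. Its annotated span is also longer, at 3408 bp against 1753 bp.

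Neither of the mating genes with enough reads to test passed the threshold for a difference between the libraries. By an exact two-sided binomial test with Benjamini-Hochberg adjustment over 7319 genes with at least 10 reads in each library, 27.1% of genes differed between the replicates. The test compares those libraries and not conditions, and its null allows for counting error only. It gave an adjusted p = 0.0685 for mfa-1, which was 0.61 higher in replicate 2 on the log2 scale after TMM scaling, a difference that 9.93% of genes reached or passed. For pre-1 the adjusted p by the same exact test was 0.792, and pre-2 had too few reads in replicate 2 to enter.

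Against wild type, matA-1 was lower and mfa-1 was tabled as higher, and the other 5 mating genes were in neither table. In the authors' deposited table matA-1 had a mean normalised count of 1.63 in Δlsd1 and 25.2 in wild type (log2 fold change -3.95, adjusted p = 0.00335). The deposited means add 1 to each count, and 1.63 is what this scale gives to 0 reads. For a bound, its wild-type mean was lowered by 2.02, the lowest wild-type mean in the authors' deposited tables. With 0 reads taken as at most 3 in each library, matA-1 was then at least 4.74-fold lower in Δlsd1. As a mat a strain does not carry matA-1, this bound does not measure an effect of lsd1. For mfa-1 the authors' deposited table gave a mean of 104 in Δlsd1 and 46.1 in wild type, a fold change of 2.26 (log2 1.18, unadjusted p = 0.0133, adjusted p = 0.0642). Set against that wild-type mean one library at a time, the log2 value of mfa-1 was 0.85 for replicate 1 and 1.44 for replicate 2. Replicate 1 taken alone thus lay under the 2-fold limit of the tables.

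One of the 7 mating genes was tabled lower, beside 7.76% of all counted genes, and 1 was tabled higher, beside 3.13%. With an adjusted p under 0.05, matA-1 was the single one of the 7 left, beside 6.57% of all counted genes called lower and 2.81% called higher at that limit. Every tabled gene differed by 2-fold or more, and the largest unadjusted p in the authors' deposited tables was 0.0497.

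For matA-2, matA-3, ccg-4, pre-1 and pre-2 the tables give no wild-type value. Tabled genes at a like level in Δlsd1 are described instead. Of the 1042 genes with 0 reads in both Δlsd1 libraries, 4 were in the authors' deposited table: matA-1, NCU01292, NCU09969 and NCU09968. Of all counted genes, 7.76% were tabled lower. The lowest wild-type mean among these 4 in the authors' deposited table was 14.1 (NCU01292, log2 fold change -3.11, adjusted p = 0.0952). With 4 genes this is not a detection limit for matA-2, matA-3 or ccg-4. The highest was 1299 at NCU09968 (log2 fold change -9.64), whose span overlaps that of NCU09969 (87.5, log2 fold change -5.75). Other differences between the strains were not tested. On the authors' scale pre-1 had a mean of 54.3 in Δlsd1. Genes within 1.2-fold of that level were tabled higher with wild-type means of up to 30.3 (15 genes) and lower with wild-type means of at least 93.0 (72 genes), in the authors' deposited tables. For pre-2, at 18.6 in Δlsd1, the matching values in the authors' deposited tables were 7.27 (2 genes) and 40.2 (45 genes). These wild-type means belong to other genes, up to 1.2-fold away in level. They set no limit for pre-1 or pre-2, as every tabled gene also differed by 2-fold or more from its own wild-type mean.

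The tabled genes most like matA-1 in both strain means were NCU01292, NCU02920 and NCU07767. Likeness is the Euclidean distance over the log2 means of the 2 strains in the authors' deposited tables, and these distances were 0.841, 0.856 and 1.00. They had 0 and 0, 1 and 0, and 1 and 1 reads in replicates 1 and 2. Those most like mfa-1 were NCU09140, NCU04941 and NCU12121, at distances of 0.0838, 0.110 and 0.158. In the authors' deposited table these 3 had log2 fold changes of 1.22, 1.11 and 1.03 with adjusted p of 0.00713, 0.0194 and 0.0346, all lower than the 0.0642 of mfa-1 at a like size of change.

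The gene next to matA-1 outside the A locus was also strongly lower in Δlsd1. NCU01957 (chromosome I, 1865597 to 1867210), 3402 bp beyond matA-1 and without a symbol in the reference table, had 8 and 6 reads, or 1.01 ± 0.182 CPM (SD, n = 2). Its mean in the authors' deposited table was 13.0 in Δlsd1 and 124 in wild type (log2 fold change -3.26, adjusted p = 1.26e-10). With each replicate alone it stood at -3.14 and -3.39 against that wild-type mean. Its level was the lowest among the 10 nearest genes on each side, whose median was 43.0 CPM.

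The next genes outward were well covered by reads. On the matA-3 side, NCU01961, 1314 bp away, had 69 and 66 reads, and eat-5 had 2521 and 2010. Beyond NCU01957, eat-2 had 1057 and 1006 reads. Of the 20 nearest genes, NCU01957 was the single one in either table and none had 0 reads. With 20 genes on each side, 3 of 40 were tabled (7.5%), 2 lower and 1 higher. Of all counted genes, 7.76% were tabled lower and 3.13% higher.

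Within 250 kb of the mating type locus, 6 of 136 genes were tabled lower (4.41%, against 7.76% of all counted genes) and 4 higher (2.94%, against 3.13%), its own 3 genes left out. Besides NCU01957, the lower genes in the authors' deposited table were NCU02022 (log2 fold change -3.46), NCU01979 (-1.70), NCU02002 (-1.21, adjusted p = 0.0868), NCU02036 (-1.15) and NCU01993 (-1.04). NCU02022 rests on 1 read in replicate 1 and 8 in replicate 2, and stood at -5.01 and -2.73 with each alone against the wild-type mean. The higher genes in the authors' deposited table were NCU02030 (1.76), NCU01976 (1.24), rid-1, a gene required for repeat-induced point mutation (1.13, adjusted p = 0.0452), and NCU01917 (1.05, adjusted p = 0.0700). One library alone left 4 of these 10 genes under 2-fold against the authors' wild-type mean: rid-1 at 0.97 and NCU01917 at 0.84 with replicate 1, and NCU02002 at -0.97 and NCU01993 at -0.85 with replicate 2.

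Around mfa-1, the tabled genes among the 20 nearest were NCU01257, NCU01259 and NCU01260, each lower in Δlsd1. NCU01257, 672 bp to its left, had 10 and 23 reads, and in the authors' deposited table a mean of 28.9 in Δlsd1 and 91.4 in wild type (log2 fold change -1.66, adjusted p = 0.00106). With replicate 1 alone this value was -2.41 and with replicate 2 alone -1.17. NCU01259, 2511 bp to its right, had 6 and 9 reads. It averaged, in the authors' deposited table, 13.9 in Δlsd1 and 50.0 in wild type (log2 fold change -1.84, adjusted p = 0.0110). The next gene, NCU01260, named after its values were seen, was lower in the authors' deposited table as well (-1.02, adjusted p = 0.00936), and stood at -0.87 with replicate 2 alone. NCU01258, between mfa-1 and NCU01259, had 895 and 622 reads, and NCU01256, beyond NCU01257, had 245 and 207; both were in neither table. Of the 20 nearest genes of mfa-1, 3 were thus tabled lower, beside 7.76% of all counted genes, and 0 higher, beside 3.13%; whether this differs from the rest of the genome was not tested.

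**Figure D2:**
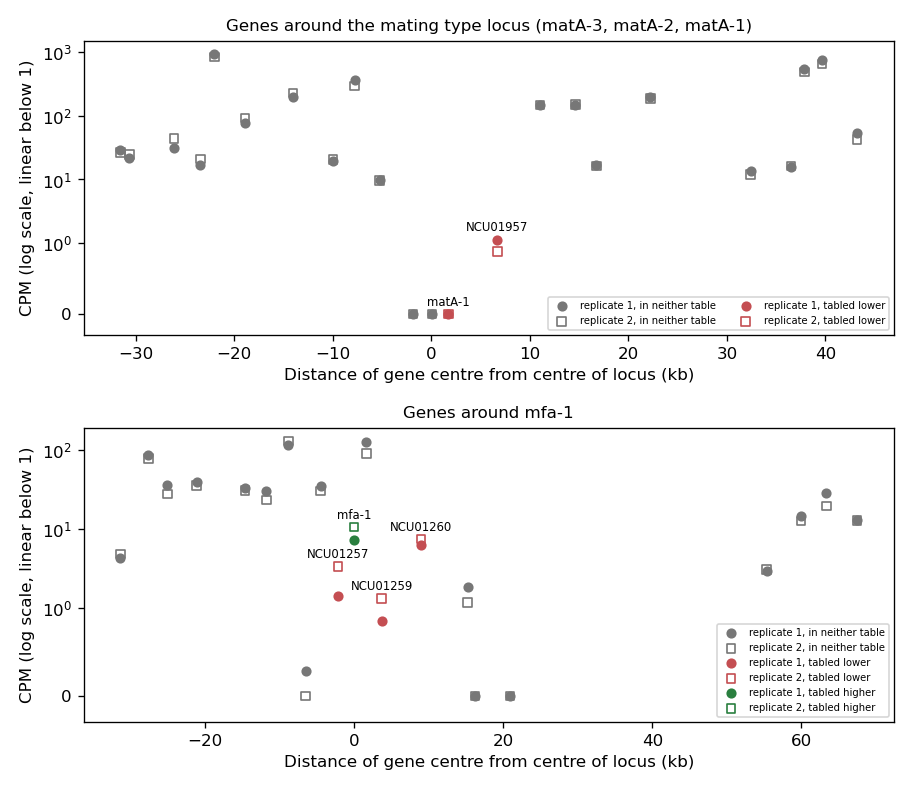
Levels in CPM in replicate 1 (filled circles) and replicate 2 (open squares) of Δlsd1 for the 10 nearest genes on each side of the mating type locus (upper) and of mfa-1 (lower), by distance of the gene's centre from the centre of the locus; red marks genes tabled lower in Δlsd1 by the authors, green tabled higher and grey in neither table. NCU01957, at 1.01 CPM on average, is the single tabled gene beside the mating type locus, and the 3 tabled neighbours of mfa-1 are all red.

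The neighbours of the other mating genes varied by locus. Next to ccg-4, NCU02499 had 61 and 47 reads and NCU02498 had 167 and 111, while on the other side NCU02501 had 1 and 0 and NCU02502 had 317 and 253. Of the 20 nearest genes of ccg-4, 3 were tabled lower, 2 of them with an adjusted p under 0.05, and 0 higher, beside 7.76% and 3.13% of all counted genes tabled lower and higher. Beside pre-1, NCU00137 (552 and 401 reads), NCU00136 (48 and 49), NCU00142 (57 and 63) and NCU00144 (2719 and 3024) were in neither table, and 1 of its 20 nearest genes was tabled lower. None of the 20 nearest genes of pre-2 was tabled, and 8 of them had 0 reads in both libraries, against 10.7% of all counted genes. NCU05757 and NCU05756 on one side of pre-2 had 80 and 42, and 9 and 11 reads; NCU05759 and NCU05760 on the other had none.

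The pheromone signalling genes were well expressed and mostly in neither table. The list holds 15 genes from the G protein through the kinase cascade to transcription factors. All had reads, with a median of 86.9 CPM, a highest level of 143 ± 0.772 CPM (SD, n = 2) for gng-1, the G protein gamma subunit gene, and a lowest of 26.1 ± 2.43 CPM for gna-2, a G protein alpha subunit gene. The kinase genes nrc-1, mek-2 and mak-2 stood at 60.4 ± 12.6, 73.6 ± 2.27 and 130 ± 5.76 CPM (SD, n = 2 each). One of 15 was tabled lower (6.67%, against 7.76% of all counted genes) and 0 higher.

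The gene tabled lower was pp-1, which encodes the Ste12-like transcription factor at the end of the cascade. It had 416 and 581 reads, or 72.4 ± 18.5 CPM (SD, n = 2). Its mean in the authors' deposited table was 819 in Δlsd1 and 1916 in wild type (log2 fold change -1.23, adjusted p = 1.19e-08). With replicate 1 alone the value was -1.56, and with replicate 2 alone -0.96, under the 2-fold limit. The libraries also differed at adv-1, a transcription factor gene of cell fusion and sexual development, with 772 and 441 reads (exact binomial test against counting error only, adjusted p = 1.15e-14).

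Of 12 sexual development genes, 2 were tabled lower (16.7%, against 7.76% of all counted genes) and 0 higher. The first, Asm-1, encodes an APSES transcription factor needed for female structures and had 305 and 377 reads. The authors' deposited table gave it a mean of 559 in Δlsd1 and 1626 in wild type (log2 fold change -1.54, adjusted p = 1.07e-13). The second, NCU07430, had 89 and 72 reads. It entered the list as mcm-1 but has no symbol in the reference table, so its place in the list was not checked. In the authors' deposited table it averaged 132 in Δlsd1 and 317 in wild type (log2 fold change -1.26, adjusted p = 3.08e-05). The list's highest gene was nor-1, an NADPH oxidase regulator gene, at 400.0 ± 30.0 CPM (SD, n = 2). Its lowest was fmf-1, a gene needed for female and male fertility, with 0 reads in both libraries and in neither table.

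Among 5 heterokaryon incompatibility genes, 1 was tabled higher, beside 3.13% of all counted genes, and 1 lower, beside 7.76%. The higher one was tol, which mediates the vegetative incompatibility of opposite mating types. It had 145 and 126 reads, or 19.6 ± 1.50 CPM (SD, n = 2), and in the authors' deposited table a mean of 222 in Δlsd1 and 96.1 in wild type (log2 fold change 1.21, adjusted p = 0.000314). With each replicate alone it stood at 1.25 and 1.16. The lower one was un-24, which encodes the large subunit of ribonucleotide reductase and carries an incompatibility function. It had 426 and 370 reads. In the authors' deposited table it averaged 648 in Δlsd1 and 1403 in wild type (log2 fold change -1.11, adjusted p = 3.16e-07). The highest of the list was het-c at 148 ± 20.1 CPM and the lowest its incompatibility partner pin-c at 8.74 ± 1.34 CPM (SD, n = 2 each), both in neither table.

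**Figure D3:**
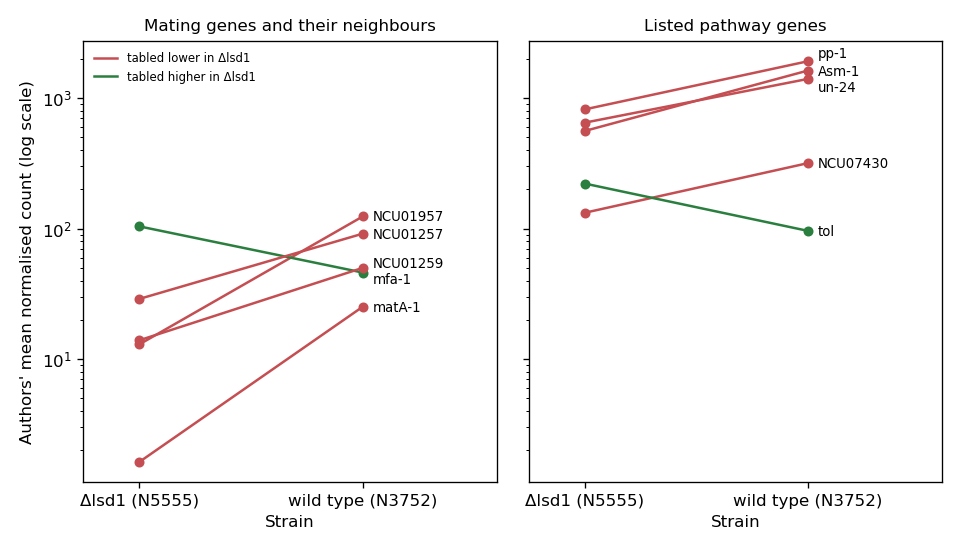
Mean normalised counts of the authors' deposited tables, on a log scale, in Δlsd1 (left) and wild type (right) for matA-1, mfa-1 and their nearest tabled neighbours and for tabled genes of the pathway lists; red lines join genes tabled lower in Δlsd1 and green lines genes tabled higher. Of these, mfa-1 (104 and 46.1) and tol (222 and 96.1) lie higher in Δlsd1.

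**Figure D4:**
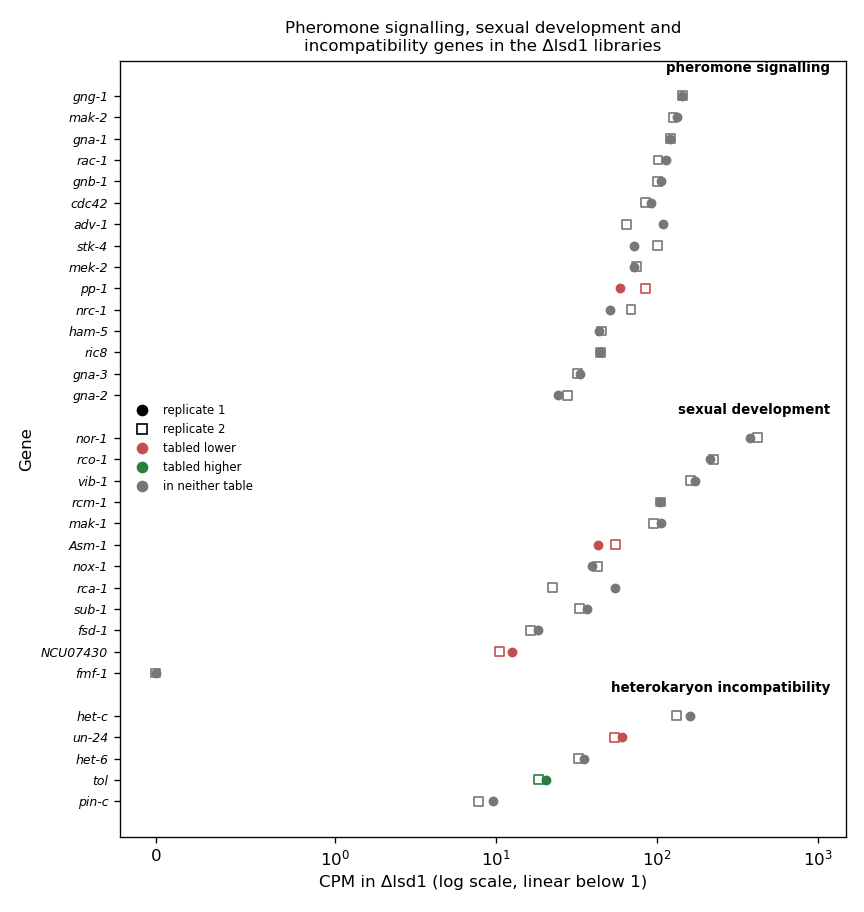
Levels in CPM in replicate 1 (filled circles) and replicate 2 (open squares) of Δlsd1 for genes of pheromone signalling, sexual development and heterokaryon incompatibility, on a log scale that is linear below 1; red marks genes tabled lower in Δlsd1 by the authors, green tabled higher and grey in neither table. All 15 pheromone signalling genes lie at 24.4 CPM or more in each library, and fmf-1 is at 0.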

How the data were processed

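The members, lists and tests were chosen with earlier results of these data known. The authors deposited raw read counts per gene for both Δlsd1 libraries. Per the submitters' processing notes, reads were aligned with Bowtie2, and DESeq2 is named there too. Not given in the sources used here are versions, genome build, counting program and use of strand. Closing rows that name no gene stayed out of library sizes: reads outside genes made up 12.3% and 12.7% of counted reads. Per the file headers, the authors' tables give mean normalised counts (signal), the fold change (a ratio) with its log2, and p-values before and after adjustment. The Δlsd1 means of all 1060 tabled genes were recovered from the counts plus 1 with size factors of 0.640 and 0.591 (largest relative error 5.11e-15), so a positive log2 fold change means higher in Δlsd1. The deposited list of 250 regions holds positions only (unit other).

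No count model across strains was fitted, since wild-type counts were not used here. Intervals are exact Poisson (95%). Libraries were compared with an exact binomial test after TMM scaling (edgeR 4.0.16; DESeq2 1.42.0 size factors as an alternative; R 4.3.3, Python 3.11.15, scipy 1.17.1), which was tested on simulated data. Apart from the changes put in, the simulated libraries varied by counting error only. The simulation thus cannot show how the test behaves where real libraries vary by more than that. Symbols, spans and coordinates come from the RefSeq table of assembly NC12 (9729 of 9730 identifiers matched). Listed genes whose symbol there differs were dropped, while NCU07430, without a symbol there, was kept. Named are the members, their 2 nearest neighbours on each side, called genes and the highest and lowest of each pathway list, called genes within 250 kb of the mating type locus, the 3 tabled genes nearest to each tabled member, tabled genes with 0 reads, and lsd1. No sequence is shown.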

Additional observations from a re-analysis of the deposited data

How the results depend on the processing

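Of the 7 mating genes, 2 were in the authors' tables, and 1 (matA-1) remained when an adjusted p under 0.05 was required, and 1 when each replicate alone had to reach 2-fold against the authors' wild-type mean. Beside the mating type locus, 1 tabled gene with 10 genes on each side became 3 with 20. Leaving out 1 library at a time put the log2 fold change of mfa-1 against the authors' wild-type mean between 0.85 and 1.44. For matA-1 the values were -4.01 and -3.89. With 0 reads in both libraries these differ only through the size factors, so using each replicate alone is no check of matA-1. Leaving out 1 library put the level between 7.41 and 10.7 CPM for mfa-1, 4.27 and 5.13 CPM for pre-1 and 1.18 and 1.85 CPM for pre-2. Scaling by TMM or DESeq2 size factors gave 9.12 and 9.11 CPM for mfa-1. The number of genes differing between the libraries was 1983, against 1949 with at least 1 read over both, 1968 with DESeq2 size factors and 2083 with total reads on genes as the scaling. A check chosen after seeing the data took 10 tabled genes: NCU01957, NCU01257, NCU01259, pp-1, Asm-1, NCU07430, tol, un-24, con-10 and con-6. Of these 10, 8 reached 2-fold with each replicate alone and 0 changed direction, and the exceptions were pp-1 and con-6. All 10 were tabled at 2-fold or more on the mean of these same libraries. A change of direction was thus unlikely beforehand, and its absence is no independent check. Other tabled neighbours were left out of the 10. Among them, NCU01260 (-0.87) and NCU01993 (-0.85) fell under 2-fold with replicate 2 alone. Coding length was not run, as no protein table was used here. No paired analysis was possible because wild-type counts were not used here. At 8 to 73 reads in a library, counting error limits the members' levels, and differences under about the width of their intervals were not detectable.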

Other observations

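None of the 250 deposited regions overlapped a mating gene. Of 9729 genes on chromosomes with a region, 236 overlapped one, so few overlaps were to be found among 7 genes. The nearest region to each, on the same chromosome, lay 20.3 kb from pre-1 (chromosome III, 2776366 to 2783017), 28.6 kb from mfa-1 (chromosome V, 3426019 to 3432645), 39.3 kb from pre-2 (chromosome VII, 3768415 to 3771454), 90.8 kb from matA-1 (chromosome I, 1952960 to 1958099) and 258 kb from ccg-4 (chromosome I, 2272987 to 2273536). The median distance from a gene to the nearest region was 65.5 kb over 9729 genes. The supercontigs of the region list were matched to chromosomes by number. Of the 7, ccg-4 lay farthest. The sources used here do not say how the regions were called.

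At rca-1, a gene of the sexual development list named after its values were seen, the libraries held 386 and 154 reads (exact binomial test, adjusted p = 1.44e-18). At eas the difference had the same direction, with 9721 and 2241 reads, as at adv-1, while nrc-1 (361 and 471 reads) and stk-4 (510 and 688) had more reads in replicate 2. These are differences between libraries of 1 strain, tested against counting error only.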
